A study of Rattus norvegicus with 36 samples.

Results

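Plus A is an isomiR of miR-125b that carries an added A at its 3′ end, and the comparison described here is that of Plus A with the mimic control (MC) under hypoxia. Its members are the 3 libraries of Hypoxia Plus A and the 3 of Hypoxia MC, chosen by their labels from 36 libraries in 12 groups. The question was which genes of hypoxic cells are changed by this isomiR. H9C2 is an established rat cell line of cardiac myoblasts. Both groups received a mimic at 25 nmol/L, were left with it for 24 h, and then spent 24 h in hypoxia, below 0.2% oxygen in serum-free low-glucose medium, so that their labels differ in the mimic alone. MC is a mimic control whose sequence is not analysed here. For values side by side, the 3 libraries each of Hypoxia miR-125b and Hypoxia Trim A, which lacks the last A, were read at the same dose and times, and for the genes that differed from both, also those of the further trimmed isomiRs Hypoxia Trim AG and Hypoxia Trim AGU. For those genes alone, the 3 libraries each of Normoxia Plus A and Normoxia miR-125b were read too. These cells received the same dose and were kept in normoxia in fresh medium, not in the medium of the hypoxic cells. No source used here says that the replicates came from separate cultures, so that p-values measure the spread between these libraries, which may be technical.

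MicroRNAs guide a silencing complex to messenger RNAs, most often through pairing of their seed, the bases 2 to 8, with the 3′ untranslated region, and lower the stability and translation of the target. miR-125b is abundant in heart, muscle and brain, and is known for holding back cell death genes and for a part in the differentiation of myoblasts. IsomiRs with another 3′ end keep the seed of the canonical miRNA. The sequences below are shown because they differ only at the 3′ end, with the seed in capitals. The canonical sequence is that of RefSeq (GRCr8, chr11:29732588-29732609, plus strand, gene *Mir125b2*), and the isomiRs were built from it with the A that the study describes as added or removed.
rno-miR-125b-5p: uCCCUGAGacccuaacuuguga
Plus A: uCCCUGAGacccuaacuugugaa
Trim A: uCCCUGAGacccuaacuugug
All 3 share the seed CCCUGAG, and they are 22, 23 and 21 bases long. The libraries were made from poly-A RNA, and the mimics themselves are not measured in them.

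The libraries held 29137147 to 30249566 counts in MC and 29656730 to 30908069 in Plus A, and the mitochondrial mRNA took 3.50 to 3.69% of the counts in MC and 3.21 to 3.77% in Plus A. The distance between libraries, as the root mean square difference of log2 CPM (CPM being the counts of a gene per library size, after TMM scaling), was 0.757 to 0.802 between the groups and averaged 0.383 within MC and 0.413 within Plus A. Every library of one group thus lay farther from every library of the other than from those of its own. Of the muscle cell markers, *Myog*, *Tnnt2* and *Acta1* were well measured and *Myf5* had no count, and the markers summed to 950 to 969 CPM in MC and 206 to 210.1 CPM in Plus A. Markers of cardiomyocytes were low, with at most 9 counts of *Nppa*, 9 of *Nppb*, 5 of *Tbx5* and 22 of *Myh6* in any library. They summed to 10.5 to 13.0 CPM in MC and 13.9 to 18.4 CPM in Plus A, most of it *Gata4*, and none was called. Fibroblast markers, led by *Col1a1*, summed to 20774 to 21160 CPM in MC and 27338 to 28800.3 CPM in Plus A. Of the 6 fibroblast markers tested, *Col1a1* alone rose, *Dcn* and *Lum* fell, and *Vim*, *Thy1* and *Col1a2* had log2 fold changes of -0.43, -0.12 and -0.19 that were not called. Smooth muscle markers, led by *Acta2* and *Tagln*, summed to 5433 to 5785 CPM in MC and 9216 to 9342 CPM in Plus A, and of 6 gene IDs tested *Acta2* alone was called. Endothelial markers summed to 4.30 to 4.43 CPM in MC and 1.34 to 1.78 CPM in Plus A, where *Tek* fell. Those of macrophages and blood summed to 22.5 to 24.6 CPM in MC and 13.9 to 15.3 CPM in Plus A, where *Csf1r* and *Cd14* fell. Hepatocyte markers summed to 0.601 to 1.16 CPM in MC and 1.99 to 2.61 CPM in Plus A, where *Apoa1* and *Cyp2e1* rose. Neural markers summed to 29.5 to 31.2 CPM in MC and 27.2 to 28.1 CPM in Plus A. Adipocyte markers summed to 0.322 to 0.411 CPM in MC and 0.580 to 0.622 CPM in Plus A. No neural or adipocyte marker was called. Epithelial markers summed to 183 to 193 CPM in MC and 86.3 to 102 CPM in Plus A, nearly all of it *Krt8*, while *Epcam* and *Cdh1* had at most 1 and 4 counts in any library. The part of these markers in the results was not tested. In bulk RNA, fewer cells of a type and less RNA per cell cannot be told apart.

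Plus A up-regulated 1588 genes (10.5% of 15159 tested) and down-regulated 2179 (14.4%), by the thresholds of 0.05 on the adjusted p and 1.5 on the fold change, in edgeR's quasi-likelihood test. The libraries of the groups did not overlap for 98.2% of the up-regulated and 98.6% of the down-regulated genes, and for 63.3% of all genes tested. A fold change of at least 2 was reached by 655 up-regulated and 1014 down-regulated genes, one of at least 4 by 185 and 226, and one of at least 8 by 56 and 57. The median log2 fold change was 0.90 among the up-regulated, -0.96 among the down-regulated and -0.0022 among all genes. Up-regulated genes had a median level of 6.30 CPM and down-regulated genes 8.83 CPM, against 18.4 CPM over all genes tested. Their median lengths were 2192.5 and 2383 bases, close to the 2214 bases of all genes.

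**Figure D1:**
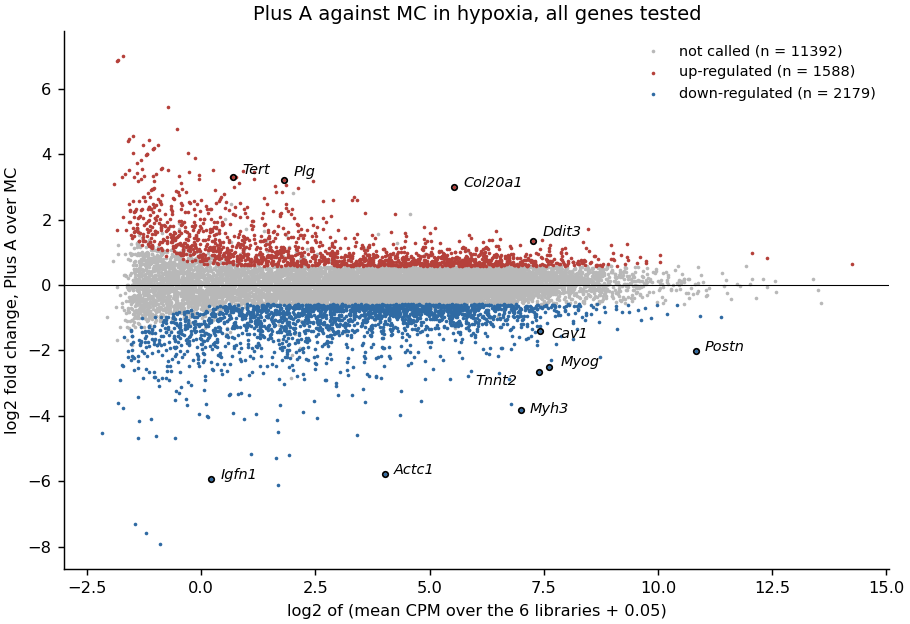
Each point is a gene, with the log2 of its mean CPM over the 6 libraries (plus 0.05) on the x axis and its log2 fold change, Plus A over MC, on the y axis. Red points are the 1588 up-regulated and blue points the 2179 down-regulated genes, and the labelled genes with the lowest fold changes, *Igfn1* and *Actc1*, are muscle genes.

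Most of the 10 genes that fell most belong to striated muscle. *Actc1*, the alpha-actin of the heart and of embryonic muscle, had 31.8, 30.2 and 33.2 CPM in the 3 MC libraries and 0.161, 0.973 and 0.591 CPM in those of Plus A (log2 fold change -5.77, SE 0.276, adjusted p = 1.29e-07). *Igfn1*, which codes for a fibronectin and immunoglobulin domain protein of muscle, had 2.37, 2.16 and 2.05 CPM with MC and a single count in each Plus A library, a ratio of 68.8 with a 95% counting interval of 23.2 to 336. Neither gene had overlapping groups. *Srl*, the calcium-binding sarcalumenin of the sarcoplasmic reticulum, had 5.22, 5.99 and 6.71 CPM with MC and 0.129, 0.162 and 0.155 CPM with Plus A (log2 fold change -5.28, SE 0.237, adjusted p = 9.42e-08). *Xirp1*, an actin-binding repeat protein of muscle junctions, had 7.85, 6.96 and 7.04 against 0.0967, 0.324 and 0.155 CPM (log2 fold change -5.21, SE 0.299, adjusted p = 4.11e-07). *Sln*, the small sarcolipin that inhibits the calcium pump, had 3.86, 4.64 and 3.58 against 0.0967, 0.130 and 0.0933 CPM (log2 fold change -5.18, SE 0.274, adjusted p = 2.42e-07). None of the 3 exceeded 0.324 CPM in a Plus A library. *Csrp3*, the muscle LIM protein, fell by 4.48 on the log2 scale, *Actn2*, the alpha-actinin of the Z-disc, by 4.03, and *Ckmt2*, the mitochondrial creatine kinase of the sarcomere, by 4.02. *Sspn*, the sarcospan of the dystrophin complex, fell by 4.10. *Nhp2*, a subunit of the small nucleolar particles and of telomerase, had 34.7, 17.5 and 8.83 CPM with MC and 0.645, 0.908 and 0.933 CPM with Plus A (log2 fold change -4.60, SE 0.488, adjusted p = 2.49e-05), with a wide spread within MC.

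The 10 genes that rose most code for proteins of different kinds. *Col20a1*, a collagen chain, was the best measured of them, with 10.7, 9.24 and 11.3 CPM in the MC libraries and 74.8, 82.8 and 89.8 CPM in those of Plus A (log2 fold change 2.99, SE 0.0904, adjusted p = 9.33e-09). Its neighbour on chromosome 3, *Chrna4*, a subunit of the nicotinic acetylcholine receptor, lies 4541 bases away on the other strand. *Chrna4* had 0.158, 0.290 and 0.0977 against 2.13, 1.78 and 2.39 CPM (log2 fold change 3.51, SE 0.352, adjusted p = 1.68e-05). The libraries were not stranded, so that reads of the pair near their ends cannot be assigned by strand. *L1cam*, a neural adhesion molecule, had 0.759, 1.19 and 1.30 CPM with MC and 10.3, 9.05 and 9.80 CPM with Plus A (log2 fold change 3.17, SE 0.196, adjusted p = 6.79e-07). *Plg*, the plasminogen, had 0.601, 0.966 and 0.456 against 6.90, 6.32 and 5.60 CPM (log2 fold change 3.22, SE 0.254, adjusted p = 3.29e-06). *Tert*, the reverse transcriptase of telomerase, had 0.380, 0.322 and 0.163 against 2.97, 2.98 and 2.58 CPM (log2 fold change 3.29, SE 0.291, adjusted p = 7.16e-06). The groups did not overlap for any of them. *Stab1*, the scavenger receptor stabilin-1, rose by 3.02 on the log2 scale, *Grb7*, an adaptor of receptor tyrosine kinases, by 3.12, *Misp*, an actin-binding protein of the mitotic spindle, by 3.30, *Cask*, a membrane scaffold kinase, by 3.00, and *Lrmp* by 3.48.

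**Figure D2:**
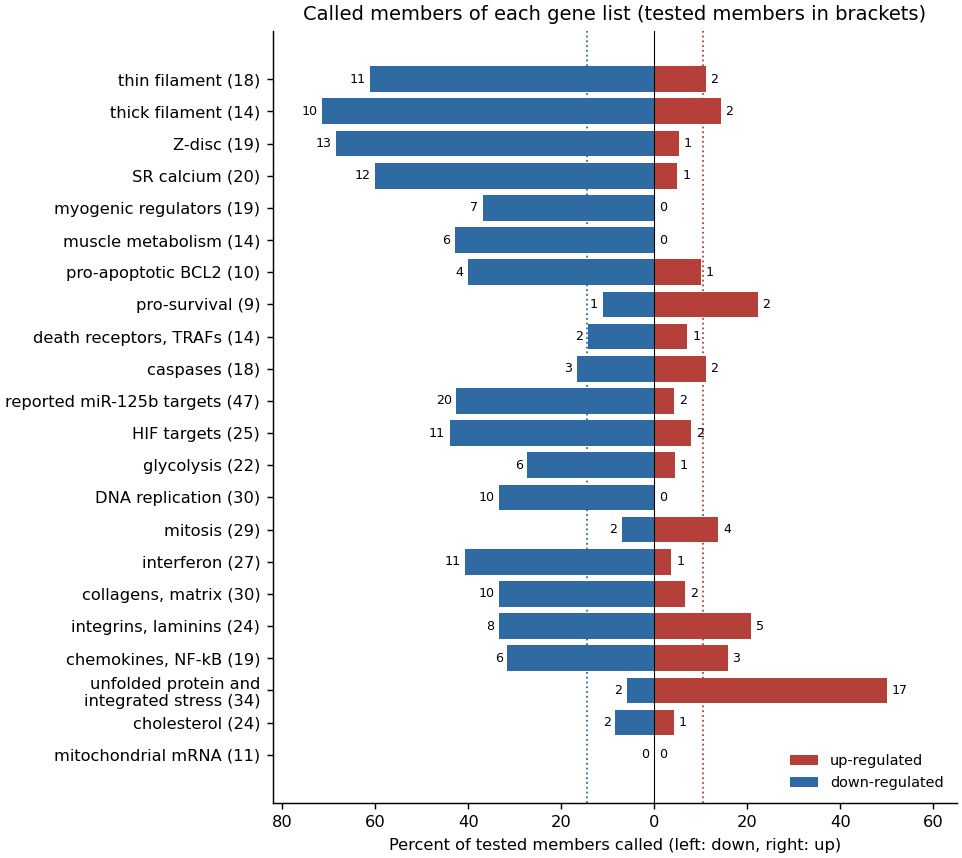
Bars give the percent of tested members of each gene list that were up-regulated (red, right) or down-regulated (blue, left) by Plus A, with the number of called genes beside the bar and that of tested members in brackets. Dotted lines mark the 10.5% and 14.4% of all genes. The lists of the contractile apparatus, Z-disc and sarcoplasmic reticulum reach farthest to the left and the unfolded protein and integrated stress list farthest to the right.

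Genes of the contractile apparatus were lower with Plus A. Over the lists of thin filament, thick filament, Z-disc and sarcoplasmic reticulum genes, 46 of 71 tested genes fell (64.8%, against 14.4% of all genes) and 6 rose (8.45%, against 10.5%), with a median log2 fold change of -1.22. Of the thin filament, which carries actin, tropomyosin and troponin, 11 of 18 members fell and 2 rose, with a median of -1.20. *Tnnt2*, the troponin T of the heart and of embryonic muscle, had 282, 303 and 293 CPM with MC and 45.6, 43.5 and 48.8 CPM with Plus A (log2 fold change -2.66, SE 0.0557, adjusted p = 1.1e-09). *Tnni1* and *Tnni2*, the slow and fast troponin I, had 37.5, 36.4 and 38.1 and 17.0, 18.7 and 17.9 CPM with MC. With Plus A they had 3.64, 3.76 and 4.26 and 1.51, 2.04 and 1.55 CPM, and fell by 3.25 and 3.38 on the log2 scale. Every Plus A library was below every MC library for these troponins. The 2 members that rose are actins of smooth muscle. *Acta2* had 3877, 3959 and 3722 CPM with MC and 6909.8, 6677 and 6827 CPM with Plus A (log2 fold change 0.83, SE 0.0365, adjusted p = 7.98e-08), and *Actg2* had 725, 770.2 and 701 against 1357, 1419.9 and 1336 CPM (log2 fold change 0.92, SE 0.0457, adjusted p = 1.74e-07).

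Of the thick filament genes, which code for myosins and their binding proteins, 10 of 14 tested members fell and 2 rose, with a median log2 fold change of -1.78. *Myh3*, the embryonic myosin heavy chain, had 233, 219 and 262 CPM with MC and 17.2, 17.2 and 15.5 CPM with Plus A (log2 fold change -3.83, SE 0.0802, adjusted p = 1.1e-09). *Mylpf*, the regulatory light chain of fast muscle, had 208, 196 and 203 against 16.2, 17.6 and 14.8 CPM (log2 fold change -3.63, SE 0.0662, adjusted p = 5.44e-10). *Myl4*, the embryonic and atrial light chain, had 36.8, 37.7 and 40.9 against 2.48, 1.91 and 2.86 CPM (log2 fold change -3.98, SE 0.122, adjusted p = 1.03e-08). The groups did not overlap for these myosins. *Myh7b*, a slow myosin heavy chain, rose from 11.3, 9.02 and 10.5 to 14.3, 17.6 and 17.9 CPM, and *Mybpc3*, the cardiac myosin-binding protein C, from 0.601, 0.676 and 0.684 to 1.13, 1.23 and 1.18 CPM, by 0.71 and 0.86 on the log2 scale. DESeq2 did not call *Mybpc3*. Per length, the mean of the authors' FPKM values in MC was 272 for *Mylpf*, 238 for *Tnnt2*, 228 for *Myog*, 108 for *Acta1* and 38.7 for *Myh3*, and in Plus A it was 21.9, 37.5, 39.7, 16.7 and 2.72.

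The Z-disc anchors the thin filaments, and 13 of 19 tested members of its list fell and 1 rose, with a median of -1.33. Besides *Xirp1*, *Csrp3* had 5.95, 5.93 and 6.38 CPM with MC and 0.355, 0.227 and 0.218 CPM with Plus A, and *Actn2* had 1.99, 1.80 and 2.18 against 0.129, 0.130 and 0.0933 CPM. *Ankrd2*, an ankyrin repeat protein of stretched muscle, was the member that rose, with 1.08, 1.29 and 1.04 against 2.80, 3.96 and 2.95 CPM (log2 fold change 1.52, SE 0.214, adjusted p = 0.000178). The sarcoplasmic reticulum stores and releases calcium, and 12 of its 20 tested members fell and 1 rose (median -0.92). *Hrc*, a calcium-binding protein of its lumen, had 9.93, 8.63 and 10.0 CPM with MC and 1.77, 1.69 and 1.34 CPM with Plus A (log2 fold change -2.56, SE 0.158, adjusted p = 6.67e-07), beside *Srl* and *Sln* described above. *Atp2a3*, a calcium pump that muscle shares with other tissues, rose from 23.6, 21.3 and 20.8 to 40.8, 42.4 and 40.9 CPM (log2 fold change 0.93, SE 0.0631, adjusted p = 1.26e-06).

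Of 19 tested regulators of myogenesis 7 fell (36.8%, against 14.4% of all genes) and none rose, with a median log2 fold change of -0.49. *Myog*, the myogenin that drives the final differentiation of myoblasts, had 339, 344 and 325 CPM with MC and 56.2, 59.8 and 58.8 CPM with Plus A (log2 fold change -2.52, SE 0.0462, adjusted p = 5.44e-10). *Tmem8c*, the myomaker that fuses myoblasts, had 27.5, 26.2 and 26.0 against 10.0, 8.98 and 8.77 CPM (log2 fold change -1.51, SE 0.0802, adjusted p = 2.46e-07). *Id3*, which blocks the factors that turn on muscle genes, fell as well, from 57.6, 57.5 and 53.2 to 19.9, 23.3 and 26.9 CPM (log2 fold change -1.25, SE 0.0931, adjusted p = 2.28e-06). *Myod1*, the factor that sets the myoblast fate, is among the 19 and, named here as a marker, had mean levels of 60.4 CPM with MC and 42.8 CPM with Plus A, a log2 fold change of -0.49 that did not reach the fold threshold. Of 14 genes of muscle metabolism 6 fell (42.9%) and none rose (median -0.31). *Ckmt2* had 2.06, 1.74 and 2.12 CPM with MC and 0.0645, 0.162 and 0.124 CPM with Plus A. *Cox8b*, a muscle isoform of cytochrome oxidase, fell by 2.70 and *Ampd1*, the AMP deaminase of muscle, by 2.34 on the log2 scale. The calls of the genes named from both lists held without each library in turn.

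**Figure D3:**
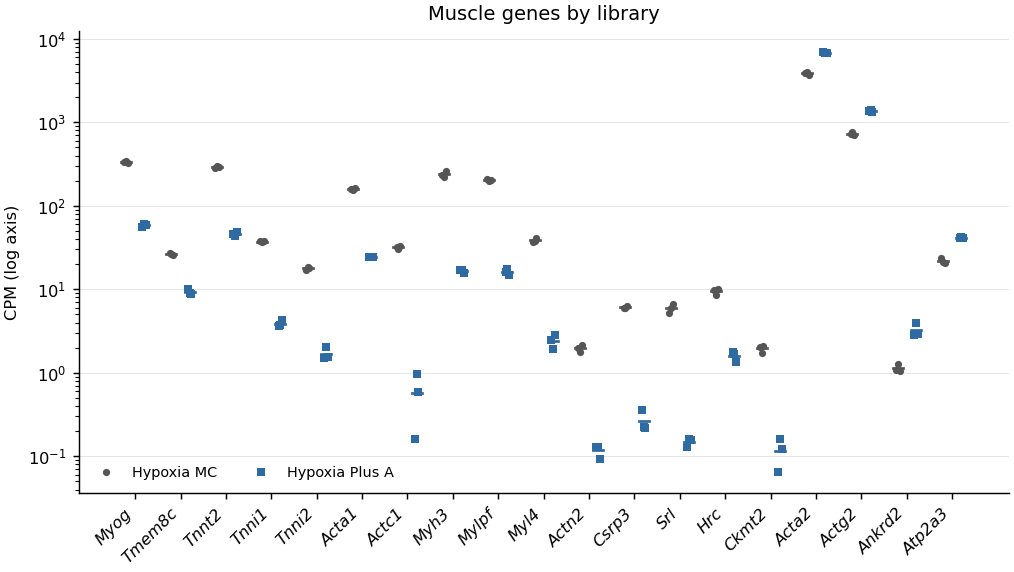
Points are CPM values (log axis) of muscle genes in the 3 libraries of Hypoxia MC (grey circles) and the 3 of Hypoxia Plus A (blue squares), and horizontal lines are group means. From *Myog* to *Ckmt2* every Plus A library lies below every MC library, while *Acta2*, *Actg2*, *Ankrd2* and *Atp2a3* lie above.

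Genes of apoptosis moved in both directions. Over the lists of pro-apoptotic BCL2 genes, pro-survival genes, death receptors with their TRAF adaptors and caspases, 10 of 51 tested genes fell (19.6%) and 6 rose (11.8%), near the 14.4% and 10.5% of all genes, with a median log2 fold change of -0.037. Among the pro-apoptotic members of the BCL2 family 4 of 10 fell (40%) and 1 rose (10%). *Bmf*, a BH3-only activator of apoptosis, had 33.8, 34.8 and 36.8 CPM with MC and 11.1, 13.8 and 10.8 CPM with Plus A (log2 fold change -1.55, SE 0.0946, adjusted p = 5.98e-07). *Bnip3l* and *Bnip3*, which act in mitophagy and cell death, fell by 0.93 and 0.69 on the log2 scale. *Bak1*, a pore-forming effector and a reported target of miR-125b, had 59.9, 59.8 and 57.6 against 32.8, 39.7 and 39.3 CPM (log2 fold change -0.65, SE 0.0705, adjusted p = 2.81e-05), and did not reach the fold threshold without replicate 1 of Plus A. *Bax*, the other main effector, had 188, 180.1 and 178 CPM with MC and 170.1, 218 and 233 CPM with Plus A (adjusted p = 0.103), and its groups overlapped. *Bcl2l11*, the BH3-only gene of Bim, had 45.3, 44.3 and 46.2 against 35.8, 32.0 and 34.2 CPM, a log2 fold change of -0.40 below the fold threshold (adjusted p = 0.000241). *Bok*, a BAX-like effector, rose from 37.5, 34.1 and 31.4 to 70.7, 75.8 and 77.0 CPM (log2 fold change 1.13, SE 0.0677, adjusted p = 5.45e-07).

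Of 9 tested pro-survival genes 2 rose (22.2%, against 10.5% of all genes) and 1 fell (11.1%, against 14.4%). *Birc5*, the survivin that also acts in mitosis, had 8.16, 7.12 and 7.66 CPM with MC and 14.3, 16.6 and 17.3 CPM with Plus A (log2 fold change 1.08, SE 0.103, adjusted p = 1.2e-05). *Birc3*, an inhibitor of apoptosis of the TNF pathway, rose by 0.69 and was not called without replicate 1 of MC or replicate 1 of Plus A. *Bcl2l2*, the anti-apoptotic BCL-W, fell from 46.6, 51.2 and 50.8 to 23.0, 30.2 and 29.5 CPM (log2 fold change -0.84, SE 0.0944, adjusted p = 3.85e-05). Of 14 death receptor and TRAF genes 2 fell (14.3%, near the 14.4% of all genes) and 1 rose (7.14%, below their 10.5%). *Tnfrsf1b*, the TNF receptor 2, had 1.68, 1.74 and 1.34 CPM with MC and 0.355, 0.389 and 0.373 CPM with Plus A (log2 fold change -2.07, SE 0.266, adjusted p = 9.54e-05). *Tnfrsf1a*, the TNF receptor 1, fell by 0.61, and the adaptor *Traf2* rose by 0.69 on the log2 scale. *Traf6* had 7.81, 8.82 and 10.3 against 6.38, 6.06 and 6.22 CPM, a log2 fold change of -0.52 (adjusted p = 0.00623) below the fold threshold, although its groups did not overlap. Both TNF receptors were thus lower with Plus A.

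Among the caspases and their partners 3 of 18 tested genes fell (16.7%) and 2 rose (11.1%), near the 14.4% and 10.5% of all genes. *Casp6*, an executioner caspase, had 3.86, 3.16 and 3.81 CPM with MC and 1.06, 1.52 and 0.280 CPM with Plus A (log2 fold change -1.91, SE 0.418, adjusted p = 0.00303), and *Dffa*, the inhibitor of the caspase-activated DNase, fell by 0.82. The groups did not overlap for *Casp6*. *Casp4*, an inflammatory caspase, rose by 0.83, and the mitochondrial protease *Htra2* by 0.65, which was not called without replicate 3 of Plus A.

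Genes of stress, DNA damage and autophagy were called in both directions. The stress sestrin *Sesn2* rose from 198, 201 and 196 to 353, 344 and 349.6 CPM, and the cyclin *Ccng1* from 487, 482 and 488 to 892, 784 and 755 CPM, by 0.82 and 0.75 on the log2 scale. *Ei24*, an endoplasmic reticulum protein of autophagy, had 98.5, 95.6 and 92.0 against 33.3, 33.2 and 32.4 CPM (log2 fold change -1.52, SE 0.0491, adjusted p = 1.42e-08), and *Dram1*, which acts in autophagy, and *Xpc*, which senses DNA damage, fell by 0.91 and 0.81. *Tp53inp2*, an autophagy factor, had 138, 142 and 144 CPM with MC and 82.4, 84.9 and 80.1 CPM with Plus A (log2 fold change -0.77, SE 0.0446, adjusted p = 4.54e-07). Its relative *Tp53inp1* fell by 0.63 and did not reach the threshold without replicate 3 of MC or replicate 3 of Plus A. *Dram2* had 14.5, 17.0 and 15.1 against 13.9, 14.0 and 12.4 CPM (adjusted p = 0.0986), with overlapping groups.

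**Figure D4:**
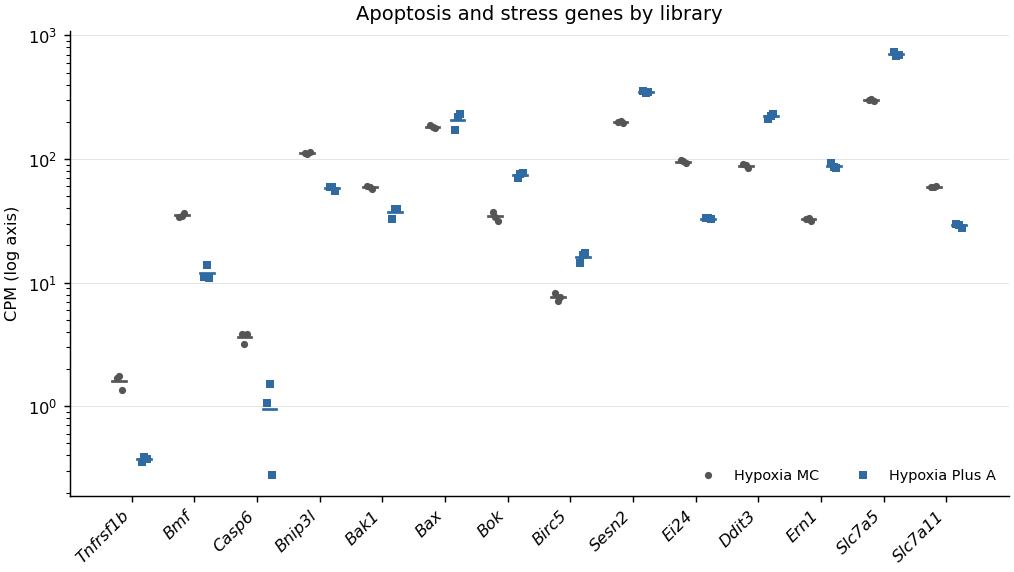
Points are CPM values (log axis) of apoptosis and stress response genes in the 3 libraries of Hypoxia MC (grey circles) and the 3 of Hypoxia Plus A (blue squares), and horizontal lines are group means. Only for *Bax* do the libraries of the 2 groups overlap among the genes drawn.

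Of the reported targets of miR-125b, a list from the literature that includes *Bak1*, *Bmf* and *Tnfrsf1b*, 20 of 47 tested genes fell (42.6%, against 14.4% of all genes) and 2 rose (4.26%, against 10.5%), with a median log2 fold change of -0.53 against -0.0022 for all genes. *Erbb3*, a receptor of neuregulin, had 9.30, 8.21 and 8.99 CPM with MC and 2.45, 2.11 and 2.27 CPM with Plus A (log2 fold change -1.94, SE 0.137, adjusted p = 1.59e-06). *Klf13*, a Krüppel-like factor, had 6.01, 5.41 and 7.13 against 2.42, 4.93 and 4.38 CPM (log2 fold change -0.65, SE 0.239, adjusted p = 0.0394), and was not called without replicate 1 or 3 of MC or replicate 1 of Plus A. Among those that rose was *Dicer1*, the nuclease that matures miRNAs, which had 59.8, 55.5 and 62.0 against 107, 94.8 and 87.9 CPM (log2 fold change 0.72, SE 0.0758, adjusted p = 2.41e-05). The list includes genes that the study itself singled out in these cells, so that its direction is not independent evidence. Among the genes that the study names, 8 of 16 tested fell (50%) and 1 rose (6.25%). The study picked *Tnnt2* as the gene that fell most in its sequencing and reported others as lowered in these cells. These shares are thus not independent evidence either. *Hif1an*, the asparagine hydroxylase that restrains HIF, had 14.4, 13.4 and 14.7 CPM with MC and 13.7, 13.7 and 16.0 CPM with Plus A (adjusted p = 0.746), with overlapping groups. The reference gene *Actb* had 5116, 5281 and 5028 against 4073, 3834 and 3696 CPM, a log2 fold change of -0.40 (adjusted p = 3.17e-05). Of the miRNA machinery 2 of 17 rose (11.8%, near the 10.5% of all genes) and 1 fell (5.88%, below their 14.4%). *Ago3*, an Argonaute, rose by 0.64, a call that was lost without replicate 2 of Plus A, and *Prkra*, a partner of Dicer, fell by 0.72 on the log2 scale. Which of the changed transcripts hold a site for the seed was not analysed here.

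The hypoxia-inducible factors turn on genes when oxygen is low, and both groups were hypoxic. Of their targets outside glycolysis 11 of 25 tested genes fell (44%, against 14.4% of all genes) and 2 rose (8%, against 10.5%). The median log2 fold change of these targets was -0.51. *Angptl4*, an inhibitor of lipoprotein lipase, had 28.0, 26.1 and 26.3 CPM with MC and 3.84, 3.40 and 3.79 CPM with Plus A (log2 fold change -2.85, SE 0.0895, adjusted p = 1.16e-08), and *Ndrg1*, a stress-response gene, had 9.62, 8.37 and 9.22 against 2.00, 1.65 and 2.24 CPM (log2 fold change -2.19, SE 0.155, adjusted p = 1.59e-06). The groups did not overlap for any of these targets. *Stc2*, a secreted stanniocalcin, rose from 27.2, 28.0 and 27.5 to 53.4, 61.3 and 60.9 CPM (log2 fold change 1.10, SE 0.0627, adjusted p = 4.03e-07), and the repressor *Bhlhe41* rose by 0.78. Of 22 genes of glycolysis, glucose uptake and lactate export 6 fell (27.3%) and 1 rose (4.55%), with a median of -0.28. *Pdk1*, the kinase that shuts pyruvate dehydrogenase, had 40.3, 37.0 and 40.7 against 17.2, 17.6 and 15.1 CPM (log2 fold change -1.23, SE 0.0755, adjusted p = 6.5e-07), and *Pfkl*, a phosphofructokinase, had 296, 295 and 292 against 131, 165 and 168 CPM (log2 fold change -0.92, SE 0.0802, adjusted p = 6.59e-06). *Eno2* is called through replicate 2 of MC, which had 21.8 CPM against 5.92 and 6.29 CPM in the other MC libraries, and was not called without it, nor without replicate 1 or 2 of Plus A, nor by DESeq2. The lactate exporter *Slc16a3* rose by 0.88 at a low level of 1.10, 2.08 and 1.55 CPM with Plus A, was not called by DESeq2 and lost its call without replicate 1 or 2 of MC or replicate 2 or 3 of Plus A. Its groups overlapped.

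Of 6 HIF subunits and oxygen-sensing enzymes tested, *Arnt*, the partner of the HIF alpha subunits, fell by 0.59 on the log2 scale, just past the fold threshold, and the call was lost with DESeq2's size factors or upper-quartile scaling and without replicate 1 or 3 of MC or replicate 1 or 2 of Plus A. None of the list rose, and the share that fell (16.7%) was near the 14.4% of all genes. The mitochondrial mRNAs did not move past the thresholds, with 0 of 11 called in either direction, 4 at an adjusted p below 0.05 in edgeR and a median log2 fold change of 0.059.

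The unfolded protein and integrated stress response was the list with the most up-regulated members. This response is switched on by misfolded protein in the endoplasmic reticulum or by lack of amino acids. Of 34 tested genes 17 rose (50%, against 10.5% of all genes) and 2 fell (5.88%, against 14.4%), with a median log2 fold change of 0.57. *Ern1*, the sensor IRE1 in the endoplasmic reticulum membrane, had 32.4, 33.5 and 31.7 CPM with MC and 92.3, 86.8 and 84.9 CPM with Plus A (log2 fold change 1.45, SE 0.0539, adjusted p = 3.22e-08). *Ddit3*, the transcription factor CHOP, had 90.4, 88.9 and 84.2 against 209.6, 222 and 232 CPM (log2 fold change 1.34, SE 0.0506, adjusted p = 3.23e-08). *Slc7a5*, a transporter of large neutral amino acids, had 301, 306 and 297 against 729, 678 and 694 CPM (log2 fold change 1.23, SE 0.0436, adjusted p = 2.36e-08). The groups did not overlap for any of these. The cystine transporter *Slc7a11* fell from 58.8, 59.2 and 60.2 to 29.8, 29.5 and 27.7 CPM (log2 fold change -1.02, SE 0.0525, adjusted p = 2e-07), and *Edem1*, which clears misfolded glycoproteins, fell by 0.60, just past the fold threshold, a call that was lost without replicate 3 of MC or replicates 1 or 2 of Plus A. Of 16 NRF2 target genes of the antioxidant response 2 rose and 2 fell (12.5% each, near the shares of all genes). *Gclc*, a subunit of the first enzyme of glutathione synthesis, rose from 163, 160.2 and 158 to 333, 300.0 and 299.9 CPM and the ferritin *Ftl1* from 2955, 2919 and 2817 to 5486, 5515 and 5898 CPM, by 0.97 and 0.97, while the quinone reductase *Nqo1* fell by 0.61.

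Of 30 tested replication genes 10 fell (33.3%, against 14.4% of all genes) and none rose, with a median log2 fold change of -0.30. *Fen1*, the flap nuclease, had 15.3, 13.7 and 13.6 CPM with MC and 5.80, 6.68 and 5.78 CPM with Plus A (log2 fold change -1.21, SE 0.105, adjusted p = 6.5e-06). *Mcm10* and *Mcm3*, which act in the replicative helicase, fell by 1.08 and 0.97. Of 29 mitosis genes 4 rose (13.8%) and 2 fell (6.9%), with the share that rose near that of all genes (median 0.12), with *Birc5* the largest rise. *Aurkb*, the kinase of the chromosomal passenger complex that survivin belongs to, fell by 0.76. Among 20 genes of G1 control 3 fell (15%, near that of all genes) and 1, *Myc*, rose, from 23.6, 23.2 and 20.1 to 40.1, 33.8 and 37.6 CPM (log2 fold change 0.75, SE 0.0848, adjusted p = 3.96e-05). *Cdkn2b*, the cyclin kinase inhibitor p15, fell from 113, 106 and 107 to 54.0, 53.8 and 55.5 CPM. Of 11 telomerase and telomere genes 2 rose (18.2%, against 10.5% of all genes) and 1 fell (9.09%, against 14.4%). These were *Tert* and *Gar1* (0.65) against *Nhp2*. *Gar1* and *Nhp2* belong to the same RNA-binding particle, and *Gar1* did not reach the threshold without replicate 3 of MC or replicate 3 of Plus A.

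Interferon-stimulated genes, the antiviral answer of cells, were down-regulated in 11 of 27 tested cases (40.7%, against 14.4% of all genes), up-regulated in 1 and not called in 15, with a median log2 fold change of -0.56. *Dtx3l*, a ubiquitin ligase, had 15.1, 16.0 and 16.3 CPM with MC and 8.67, 5.93 and 6.41 CPM with Plus A (log2 fold change -1.16, SE 0.138, adjusted p = 5.62e-05). *Ifih1*, the sensor MDA5 of double-stranded RNA, had 4.68, 4.67 and 3.84 against 2.00, 2.72 and 1.43 CPM (log2 fold change -1.09, SE 0.232, adjusted p = 0.00251), and *Mx2* fell by 1.07. The groups did not overlap for these genes. *Tap1*, a transporter of antigen peptides, rose from 42.6, 38.9 and 39.6 to 71.1, 72.3 and 73.0 CPM (log2 fold change 0.85, SE 0.0513, adjusted p = 5.75e-07). Of 19 chemokine, cytokine and NF-κB genes 6 fell (31.6%) and 3 rose (15.8%). The alarmin *Il33* had 16.0, 15.4 and 15.5 CPM with MC and 1.93, 2.50 and 3.17 CPM with Plus A (log2 fold change -2.61, SE 0.159, adjusted p = 5.93e-07), the chemokine *Cxcl1* fell by 1.20, and *Nfkb2*, a subunit of the alternative NF-κB pathway, rose from 59.5, 56.8 and 61.3 to 99.8, 106 and 109 CPM (log2 fold change 0.84, SE 0.0524, adjusted p = 7.13e-07). *Relb*, its partner, rose by 0.65. Among 20 immediate early genes 4 fell and 4 rose (20% each, against 14.4% and 10.5% of all genes). *Jun*, a subunit of AP-1, had 193, 202 and 199.8 against 78.5, 84.5 and 84.9 CPM (log2 fold change -1.25, SE 0.0469, adjusted p = 3.23e-08), and *Ier3* fell by 1.08, while *Egr2* and *Klf2* rose by 1.16 and 0.69 on the log2 scale.

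Of 30 tested collagen and matrix genes 10 fell (33.3%, against 14.4% of all genes) and 2 rose (6.67%, against 10.5%). Their median log2 fold change was -0.25. The small proteoglycans *Lum* and *Dcn*, which bind collagen fibrils and lie 37447 bases apart on chromosome 7, had 60.7, 54.0 and 59.3 and 42.3, 37.3 and 41.3 CPM with MC. With Plus A they had 8.51, 10.7 and 10.1 and 6.54, 8.53 and 7.90 CPM and fell by 2.56 and 2.38. *Postn*, the periostin of healing tissue, had 2861, 2966 and 2946 CPM with MC and 738, 737 and 674 CPM with Plus A (log2 fold change -2.02, SE 0.0471, adjusted p = 2.44e-09). *Col1a1*, the main chain of type I collagen and the gene with the highest level named here, rose from 14606, 15440.4 and 15668 to 23478, 23247 and 23793 CPM (log2 fold change 0.64, SE 0.0352, adjusted p = 3.21e-07). *Col6a1* rose from 0.411, 0.354 and 0.717 to 0.838, 0.973 and 1.31 CPM and was not called by DESeq2, nor without replicate 1 or 2 of MC or replicate 3 of Plus A. Of 14 proteases and their inhibitors 4 fell (28.6%) and 1 rose (7.14%). *Plat*, the tissue plasminogen activator, had 139.8, 170.1 and 138 against 35.3, 33.4 and 28.9 CPM (log2 fold change -2.19, SE 0.0973, adjusted p = 8.71e-08), *Adamts4*, an aggrecanase, had 40.4, 44.1 and 44.1 against 10.1, 9.37 and 11.7 CPM (log2 fold change -2.03, SE 0.0870, adjusted p = 7.24e-08), and the inhibitor *Timp3* rose by 1.01. *Plat* fell, while *Plg*, the precursor that it cleaves, rose.

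Of 24 integrin, laminin and tetraspanin genes 8 fell (33.3%, against 14.4% of all genes) and 5 rose (20.8%, against 10.5%). *Itga7*, the laminin receptor of muscle, had 126, 126 and 131 CPM with MC and 26.8, 31.4 and 29.9 CPM with Plus A (log2 fold change -2.11, SE 0.0614, adjusted p = 7.89e-09), and *Itga6*, another laminin receptor, had 205, 205 and 221 against 71.1, 64.8 and 64.5 CPM (log2 fold change -1.64, SE 0.0576, adjusted p = 2.21e-08). The laminin chain *Lamc1* rose from 623, 636 and 666 to 1053, 1063 and 1045 CPM. *Itga8* and *Itgb8* rose by 0.98 and 0.90. Integrins were thus called in both directions. Among 28 TGF-β and BMP genes 5 fell (17.9%) and 3 rose (10.7%), near the 14.4% and 10.5% of all genes. *Inhba*, the activin A subunit, had 38.0, 39.1 and 44.5 against 13.9, 17.1 and 13.8 CPM (log2 fold change -1.43, SE 0.0967, adjusted p = 1.21e-06), *Tgfbr2*, the type II receptor, fell by 1.20, and *Nog*, the BMP antagonist noggin, rose by 1.04. Of 15 IGF genes 5 fell (33.3%) and 2 rose (13.3%). *Igfbp5*, an IGF-binding protein of myoblasts, had 339, 336 and 350.1 CPM with MC and 97.6, 95.7 and 98.4 CPM with Plus A (log2 fold change -1.80, SE 0.0426, adjusted p = 2.5e-09), while *Igfbp2*, its neighbour at 5421 bases, rose from 1.27, 0.741 and 0.651 to 1.97, 2.92 and 2.86 CPM.

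Of 9 genes of caveolae, the small pits of the cell membrane, 4 fell (44.4%, against 14.4% of all genes) and 1 rose (11.1%, against 10.5%). *Murc*, the cavin of muscle, had 78.0, 82.1 and 83.5 CPM with MC and 20.0, 19.1 and 19.1 CPM with Plus A (log2 fold change -2.05, SE 0.0546, adjusted p = 4.2e-09), and *Sdpr*, another cavin, had 467, 460.0 and 456 against 221, 219.9 and 211 CPM (log2 fold change -1.07, SE 0.0404, adjusted p = 3.23e-08). *Cav1*, the caveolin 1 that builds the coat (chr4:44597123-44630200, in the coordinates of the deposited tables, whose build is not given in the sources used here), fell from 243, 258 and 245 to 96.6, 90.3 and 90.8 CPM (log2 fold change -1.41, SE 0.0485, adjusted p = 2.02e-08). Its neighbour *Cav2* lies 16484 bases away on the same strand and rose from 39.2, 43.7 and 38.8 to 93.3, 88.7 and 82.8 CPM (log2 fold change 1.13, SE 0.0655, adjusted p = 4.32e-07). The 2 caveolins thus went in opposite directions. Of 24 cholesterol and fatty acid genes 2 fell (8.33%) and 1 rose (4.17%), below the shares of all genes. *Dhcr7*, the last enzyme of cholesterol synthesis, fell from 6.11, 5.60 and 6.74 to 3.84, 2.89 and 3.73 CPM, and *Acaca*, which makes malonyl-CoA, rose from 25.8, 25.8 and 25.0 to 41.3, 40.9 and 40.0 CPM. Among 10 keratins and other intermediate filament genes 3 fell (30%) and none rose, with *Krt8* at 192, 185 and 182 CPM with MC and 86.1, 102 and 100.1 CPM with Plus A. *Usp15*, a deubiquitinase, fell from 63.4, 67.5 and 66.9 to 42.9, 40.5 and 33.1 CPM (log2 fold change -0.75, SE 0.0872, adjusted p = 4.61e-05). Its paralogs *Usp4* and *Usp11* had log2 fold changes of 0.15 and 0.40, which did not reach the fold threshold.

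The same MC libraries serve the comparisons of miR-125b and Trim A, so that values over MC are given side by side without a test. For *Tnnt2* the log2 fold change over MC was -2.66 with Plus A, -2.83 with miR-125b and -3.33 with Trim A. *Myog* had -2.52, -2.42 and -3.02 in the same order, *Bmf* had -1.55, -1.52 and -2.06, and *Ddit3* had 1.34, 1.27 and 1.60. For *Col1a1* the values were 0.64 with Plus A, 0.76 with miR-125b and 0.06 with Trim A. Direct tests compared Plus A with each mimic at the same dose and time. Against miR-125b, 107 genes were higher (0.707% of 15134 tested) and 200 lower (1.32%) with Plus A, together 2.03%. These became 8 and 80 with all 18 hypoxia libraries in 1 fit, and 46 and 119 without replicate 1 of miR-125b. The higher count became 70 without replicate 2 of Plus A. The lower count became 126 when replicate 3 of miR-125b was left out. Against Trim A, 85 were higher (0.563% of 15104) and 273 lower (1.81%). When no fold was required, 4.35% passed the adjusted p in either direction, while 15.9% did so in the comparison with miR-125b. Without replicate 1 of Trim A the 85 and 273 became 757 and 641, and without each of the other 5 libraries they fell to between 9 and 23 and between 127 and 182. In that replicate mitochondrial mRNA took 3.35% of the counts, against 4.93% and 4.39% in replicates 2 and 3 of Trim A. Its 10 highest genes took 9.30%, against 8.08% and 7.99%. The part of these differences in the counts of called genes was not tested. *Tnnt2* was 0.66 higher on the log2 scale with Plus A than with Trim A (adjusted p = 0.0036) and 0.17 higher than with miR-125b, which did not pass (adjusted p = 0.0753). *Bmf* differed from miR-125b by -0.04 with an SE of 0.132 (adjusted p = 0.883), which did not pass.

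Some genes changed by Plus A also differed from miR-125b and Trim A. Called in the same direction against MC, miR-125b and Trim A were 44 genes that were lower and 4 that were higher with Plus A. The 3 comparisons share the Plus A libraries, so that the numbers describe how genes were chosen and are no test. The 4 higher genes became 0 with all 18 hypoxia libraries in 1 fit, 0 without replicate 2 of Trim A or replicate 1 or 2 of Plus A, 1 and 2 without replicate 3 of Trim A or of Plus A, and 12 without replicate 1 of Trim A. Against the further trimmed isomiRs, 38 of the 44 lower genes were also lower than with Trim AG (9.16% of all genes were) and 33 than with Trim AGU (3.57%), 30 of them than with both. Of the 4 higher genes, 4 were higher than with Trim AG (11.3% of all genes) and 1 than with Trim AGU (2.64%). These comparisons use the same Plus A libraries, so that the choice of the genes favours such shares and they are no test either. Replicate 2 of Trim AGU stands apart, with a TMM factor of 0.854 against 0.989 and 1.01. *Cav1* was first among the lower genes, with 235, 239.9 and 236 CPM in the miR-125b libraries and 265, 314 and 306 CPM in those of Trim A, beside 96.6, 90.3 and 90.8 CPM with Plus A. Its log2 fold change was -1.35 against miR-125b (SE 0.0398, adjusted p = 5.72e-07) and -1.67 against Trim A (adjusted p = 0.000224), while miR-125b itself lay -0.06 from MC. Trim AG had 216, 256 and 246 CPM and Trim AGU 236, 253 and 255 CPM.

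*Gpd1l*, a glycerol phosphate dehydrogenase, had 19.5, 20.5 and 20.8 CPM with MC, 21.7, 22.3 and 22.9 with miR-125b, 23.4, 23.0 and 22.0 with Trim A and 8.67, 9.18 and 8.49 with Plus A (-1.34 against miR-125b, adjusted p = 2.24e-05). With Trim AG it had 8.35, 7.33 and 7.42 CPM, and Plus A was not called against it (adjusted p = 0.245). *Tax1bp3*, a PDZ domain protein, had 140.1, 132 and 138 CPM with MC, 129.8, 127 and 130.4 with miR-125b, 116, 142 and 140.3 with Trim A and 62.1, 67.7 and 66.0 with Plus A (-0.98 against miR-125b, adjusted p = 1.03e-05). *Bcl10*, an adaptor of NF-κB signalling, had 20.4, 19.4 and 19.0 CPM with MC, 16.3, 19.2 and 18.6 with miR-125b, 15.4, 19.9 and 19.5 with Trim A and 10.2, 9.99 and 8.99 with Plus A (-0.89 against miR-125b, adjusted p = 0.000609). For these and *Cav1* the Plus A libraries lay below those of MC, miR-125b and Trim A.

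Some of the 44 were already lower with the other mimics than with MC. *Gatm*, the first enzyme of creatine synthesis, had 38.3, 36.0 and 37.7 CPM with MC, 18.7, 19.7 and 17.9 with miR-125b and 23.0, 21.8 and 23.7 with Trim A, and reached 11.2, 9.11 and 10.9 with Plus A (-0.84 against miR-125b, adjusted p = 0.000875). With Trim AGU it had 7.93, 9.67 and 7.78 CPM, and Plus A was not called against it (adjusted p = 0.253). *Brip1*, a DNA repair helicase, had 3.80, 3.80 and 3.81 CPM with MC, 1.91, 2.67 and 2.18 with miR-125b, 2.78, 2.58 and 2.11 with Trim A and 1.19, 1.36 and 1.21 with Plus A (adjusted p = 0.0229 against miR-125b). The regulatory kinase subunit *Prkar2a*, the spindle protein *Mzt1*, the nuclease *Exo1* and the granzyme *Gzmbl3* were -0.90, -0.96, -1.02 and -1.16 against miR-125b on the log2 scale. The autophagy gene *Ei24* and the matrix gene *Plat* were among the 44 too, as were *Mcm3*, *Aurkb* and *Inhba*. Of the 44 genes, 36 were not called with miR-125b or with Trim A against MC, a share that the choice of the genes favours. The 44 ranged from -2.19 to -0.60 against MC and from -1.35 to -0.60 against miR-125b. The higher genes with a name, whose calls depend on the fit as given above, were *Plg*, with 3.69, 4.09 and 4.01 CPM with miR-125b and 3.63, 3.62 and 2.82 with Trim A beside 6.90, 6.32 and 5.60 with Plus A, *Car1*, a carbonic anhydrase (0.66 against miR-125b), and *Foxo1*, a forkhead factor of growth control (0.65).

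**Figure D5:**
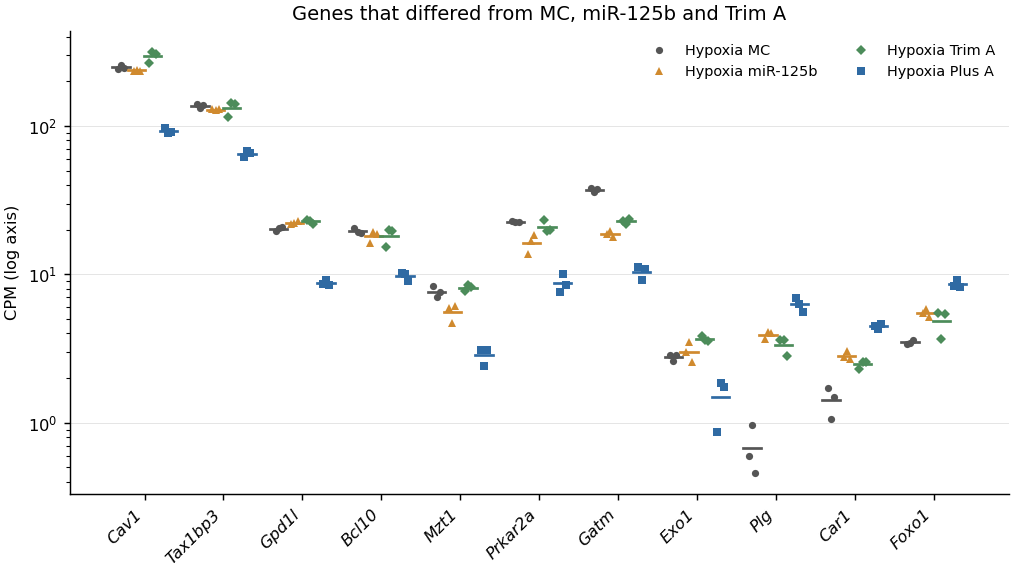
Points are CPM values (log axis) in the 3 libraries each of Hypoxia MC, miR-125b, Trim A and Plus A, and horizontal lines are group means. The Plus A libraries (blue squares) lie below the other 9 for the genes from *Cav1* to *Exo1* and above them for *Plg*, *Car1* and *Foxo1*.

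The same genes were read in the libraries labelled Normoxia Plus A and Normoxia miR-125b, which took no part in their choice. In replicates 2 and 3, 43 of the 44 lower genes were lower in both libraries labelled Plus A than in both labelled miR-125b. Of all genes tested, 25% showed this order. In replicate 1 the order was the opposite for 42 of the 44, and 41 showed both, against 18.6% of all genes tested. *Cav1* read 275, 103 and 104 CPM in the libraries labelled Normoxia Plus A 1, 2 and 3, while the libraries labelled Normoxia miR-125b read 107, 292 and 271 CPM. With all 3 replicates, 0 of the 44 genes were lower in every library labelled Plus A, against 3.89% of all genes. Replicate 1 of each of these normoxia groups therefore goes against the others under its label, and no normoxia value is used elsewhere in this comparison.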

How the data were processed

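Poly-A RNA of 36 libraries was sequenced, of which 6 enter this comparison. The deposited gene counts were made by the authors, whose submitted processing notes name HISAT2 and StringTie; the genome build is not given in the sources used here. FPKM values, as deposited, are the authors' own and served only for mean levels between genes. A deposited table of mean signal in normoxia and the columns of the authors' own tests (fold changes and p-values) were used for no result. The counts of MC and Plus A stand in separate tables of 2 groups each. These were joined by gene ID, 22429 genes in all and 20191 in both tables, and a gene left out of one table was set to 0 there. The fit to both tables' genes alone is an alternative.

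Counts were filtered with filterByExpr, scaled by TMM and tested with edgeR's quasi-likelihood test (edgeR 4.0.16, R 4.3.3), with Benjamini-Hochberg adjustment over all genes tested, a threshold of 0.05 and a fold change of at least 1.5. DESeq2 1.42.0 was an alternative. CPM values are counts per TMM-scaled library size. Tables and plots were made in Python 3.11.15 with pandas 2.3.3, numpy 2.4.6 and matplotlib 3.10.9. In 5 simulations of the comparison with MC, over 14972 genes, 77% of 2-fold and 94.6% of 4-fold changes were recovered, and 4.98% of the calls were false. The share of false calls was 5.74% for the comparison with miR-125b (14968 genes) and 7.89% for that with Trim A (14935 genes), above the threshold. Each simulation changed 200 genes, by 2-fold or 4-fold, in counts drawn from the fitted spread without a deviating library. In the data 24.8% of genes were called against MC, so that these shares are no estimate of the false calls there. The libraries held 29137147 to 30908069 counts. At this depth a gene at a few counts is known only within its counting error, and intervals cover counting error only. The libraries were not stranded, and 293 gene names stand on more than 1 ID, so that overlapping and near-identical genes are uncertain.

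The members, gene lists and tests were chosen with earlier results of these data known. Named against MC were, in each direction, the 10 genes that changed most among those called, at a mean of 1 CPM or more, without overlap of the groups and with a proper name; further the genes the study names and up to 3 called genes a direction from each list. Genes that stood apart from the other mimics were named by the same kind of rule, and marker genes were named from the marker lists. Some genes that this rule names are not reported here.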

Additional observations from a re-analysis of the deposited data

How the results depend on the processing

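Against MC, the 1588 and 2179 genes became 1604 and 2129 with DESeq2, 1484 and 2267 scaled by library totals, 1446 and 1949 with all 18 hypoxia libraries in 1 fit, and 1511 to 1589 and 2108 to 2193 without each library in turn. They became 655 and 1014 with a fold change of at least 2, and 4242 and 4341 with no fold threshold. Against miR-125b, the 107 higher and 200 lower genes became 8 and 80 with all 18 libraries in 1 fit, 32 and 47 with a fold change of at least 2, and 1265 and 1143 with no fold threshold. Without each library they ranged from 46 to 123 and from 119 to 214. Replicate 1 of miR-125b gave the lowest of both, and replicate 2 of Plus A (70 higher) and replicate 3 of miR-125b (126 lower) also moved a count by over 1.5 times. Against Trim A, the 85 higher genes became 199 with DESeq2, 152 with no filter on low counts, 26 with a fold change of at least 2 and 190 with no fold threshold, and the 273 lower genes became 80 and 467 in the last 2. Without each library they ranged from 9 to 757 and from 127 to 641, the highest without replicate 1 of Trim A and the lowest without replicate 2 of Plus A. The 4 genes higher against all 3 groups became 0 with all 18 libraries in 1 fit and 0 to 12 without each library, alternatives chosen after seeing the data, and the 44 lower became 30 to 61. The cause was not tested. Same-numbered replicates of MC and Plus A did not deviate together over all genes (r = -0.022, -0.018 and -0.018). With 3 replicates a group this cannot tell whether they shared a culture or a batch. With the replicate block, 1558 and 2159 genes were called against MC and 78 and 146 against miR-125b. Of 2576 alternatives for 184 named genes, 2488 kept the call, 83 lost it, 5 gained it and 0 reversed the direction. Of 288 alternatives for the list counts, 283 stayed within 1.5 times.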

Other observations

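Gene families by the protein domain that the deposited annotation lists were looked at beside the lists above, and those named here were chosen after their counts were seen. The families and the lists share members. *Adamts4* stands in the protease list too, and the list of integrins and laminins also holds tetraspanins. Of 25 tested genes with a thrombospondin type 1 domain, most of them secreted ADAMTS proteases that cut the matrix, 13 fell and 0 rose. *Adamts14* had a log2 fold change of -2.47 (SE 0.106, adjusted p = 7.29e-08), *Adamts16* of -1.96 (SE 0.106, adjusted p = 2.78e-07) and *Adamts15* of -1.91 (SE 0.139, adjusted p = 1.94e-06). Of 24 tetraspanins, which organise proteins in the cell membrane, 10 fell and 1 rose. *Tspan33* had a log2 fold change of -2.33 (SE 0.0676, adjusted p = 7.89e-09) and *Tspan2* of -1.64 (SE 0.0638, adjusted p = 4.09e-08). Of 51 cadherins and protocadherins, which join cells, 17 fell and 1 rose, and *Cdh11* had a log2 fold change of -1.22 (SE 0.058, adjusted p = 1.23e-07). Of 96 genes listed under the C2H2 zinc finger domain, a common DNA-binding fold, 13 rose (13.5%, near that of all genes) and 4 fell (4.17%). The annotation lists the KRAB domain as a family of its own, and of its 137 tested genes 16 rose and 10 fell. Of 21 genes listed with the HSP70 domain of the heat shock chaperones 4 rose and 0 fell. Over all genes tested 10.5% rose and 14.4% fell.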
